A study of Callorhinchus milii with 12 samples.

Results

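Methylation was compared CG site by CG site between the livers of a female and a male elephant shark, *Callorhinchus milii*, the animals whose libraries had been sequenced deeply. A CG site was taken into the comparison when it had at least 8 methylation calls in each library, and 72166 of the 13522973 CG sites with a call in either library met this minimum. Both livers came from adult animals obtained dead from commercial fishermen, and the labels name no treatment, age or relatedness. Of the 12 libraries of the series, the other 10 were sequenced at low coverage and carry no calls by position. There was 1 library per sex, so female and male stand here for 2 animals. A difference between the sexes cannot be told apart from a difference between these individuals or between their library preparations. No gene annotation of the authors' assembly was at hand, so the liver label could not be checked against marker genes, and neither genes nor sequences are given.

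In vertebrates, methyl groups are placed on the cytosines of CG dinucleotides. The dinucleotide reads the same on both strands, and the maintenance methyltransferase copies the mark to the new strand after DNA replication, so that a site tends to keep its state in the descendants of a cell. Most CG sites of vertebrate somatic tissues are methylated, while promoters and CG-rich islands are commonly free of it. A level between these states at 1 site arises when some of the sampled DNA molecules carry the mark and others do not.

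The female library held 30080951 CG calls and the male library 38128530, which is a mean of 2.22 and 2.82 calls per site. Their global levels were 69.0% and 71.6%, and the female minus male difference was thus -2.60 percentage points. The sites kept for comparison were the deep end of both libraries. They made up 0.534% of all sites and took 2.61% of the female and 2.27% of the male calls. The median site had 9 calls in the female and 10 in the male, with maxima of 150 and 157. A single-end read calls a given site once, so that the calls at a site came from as many reads after removal of duplicates. The read names of both libraries carry the same flow cell and the same 2 lanes.

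Sites that were deeply covered in both livers were less methylated than shallower ones, in the female and the male alike. Where the shallower library had exactly 8 calls, the 37699 sites had mean levels of 66.7% (female) and 68.3% (male). Just outside the minimum, the 88821 sites with exactly 7 calls had means of 68.9% and 70.7%. At 12 to 19 calls the means had fallen to 38.8% and 39.9%, and at 20 calls or more to 26.1% and 27.8%. The surroundings changed along with the depth. A 2 kb window was called over-covered when it had more than 3 times as many calls per site as the median window. Such windows held 2.84% of the sites with exactly 8 calls, 45.6% of those with 12 to 19 and 83.4% of those with 20 or more, against 0.165% of all CG sites. In all, 8741 of the kept sites (12.1%) lay in over-covered windows, with mean levels of 26.2% (female) and 27.6% (male). The other 63425 sites had means of 64.9% and 66.4%. The part of over-coverage in the low levels was not tested. Kept sites also lay in CG-rich surroundings, with a median of 54 CG sites in their 2 kb window, beside 37 over all CG sites. Counted per window rather than per site, the median over all windows was 28.

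Across the 72166 sites, levels in the livers were closely alike, and the female liver was slightly the less methylated. Mean levels were 60.2% (female) and 61.7% (male), and both medians were 75%. The mean difference of -1.46 percentage points had a 95% interval of -1.56 to -1.35, which covers counting error only. This interval takes the sites as independent, although 1 read can call several neighbouring sites, so it can be too narrow. With the calls of all kept sites pooled within each library, the levels were 54.2% (female) and 54.9% (male), a difference of -0.742 points. Pooling weighs each site by the library's own calls, so the weights differ between the livers. Within the classes of depth of the kept sites, with sites weighed alike, the difference lay between -1.67 and -1.06 points. Pearson's r over sites was 0.896 and Spearman's rho 0.817, as a description of 1 pair of libraries whose sites are not independent replicates. The female was the lower at 37.9% of the sites and the higher at 31.1%, and 31.0% had the same level in both. The levels lay within 10 points of each other at 56.2% of the sites and within 20 points at 80.6%.

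The levels of both livers fell into the same shape, with a peak at each end. No call was methylated at 18.5% of the sites in the female and 17.4% in the male, and every call was methylated at 22.9% and 23.8%. A further 20.8% of the female and 22.6% of the male sites lay from 80% to under 100%. Levels from 20% to under 40% were the scarcer kind in the middle, with 6.66% of the sites in the female and 5.53% in the male. Both ends moved with depth, in opposite ways up to 19 calls. Sites unmethylated in both livers made up 11.9% where the shallower library had exactly 8 calls and 24.9% at 12 to 19 calls, whereas sites fully methylated in both made up 16.4% and 1.99%. At 20 calls or more both shares were lower than at 12 to 19, at 19.3% and 0.299%. The deeper sites lay more often in over-covered windows, as given above, and the part of depth itself was not tested.

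**Figure D1:**
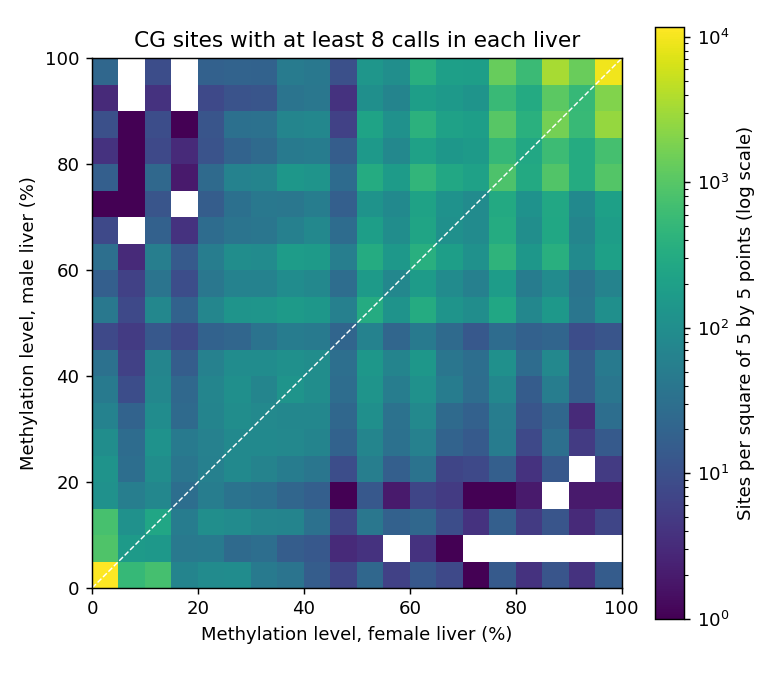
Methylation level of each of the 72166 CG sites in the female (horizontal axis, %) and the male liver (vertical axis, %), as the number of sites per square of 5 by 5 points on a logarithmic colour scale, with the line of equal levels dashed. The corners of equal levels hold the most sites, with 10703 sites at 0% and 9416 at 100% in both, whereas 38 sites lie at the far ends of the other diagonal. White squares hold no site.

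Most of the scatter between the livers was of the size that counting alone gives. The difference had an SD of 17.2 points over sites. Binomial counting at the depths of these sites accounts for an SD of 14.7 points, or 73.6% of the variance. An SD of 8.84 points was left beyond counting, and with the counting noise taken out of both variances r rose to 0.970. At the 63425 sites outside over-covered windows these values were 9.13 points and 0.964, and the mean difference was -1.46 points there as well. Over-covered windows alone gave 6.27 points, an r of 0.982 and a mean difference of -1.40 points.

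Sites were next classed as unmethylated (no methylated call), fully methylated (no unmethylated call) or between these. The livers gave the same class at 52785 sites, or 73.1%. Of the 13374 sites unmethylated in the female, 10703 (80.0%) were unmethylated in the male too, and 96.1% were under 20% there. Of the 12530 sites unmethylated in the male, 85.4% were so in the female, and 97.0% were under 20%. Full methylation was the less repeatable class at these depths, and it was so between lanes of 1 library too, as given below. Of the 16549 sites fully methylated in the female, 9416 (56.9%) were so in the male, and 88.7% were at 80% or more. Of the 17204 sites fully methylated in the male, 54.7% were so in the female, and 85.6% were at 80% or more. A single unmethylated call takes a site out of this class. Sites fully methylated in 1 liver and between in the other kept a high level, with a median of 87.5% in the other liver whichever of the 2 was fully methylated.

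The agreeing sites sat in stretches of their own kind. Flanks were taken from more than 100 bp up to 500 bp on either side, farther than the 90 bp that the longest read spans, and needed at least 10 calls per liver. Around sites unmethylated in both livers, the flanks had median levels of 1.33% (female) and 1.57% (male). Around sites fully methylated in both, they had medians of 90.4% and 91.3%. Around the 32666 sites that lay between in both, the medians were 71.2% and 73.7%. Sites unmethylated in both livers had a median of 71 CG sites per 2 kb, beside 57 for those fully methylated in both and 48 for those between in both. Over-covered windows held 26.3% of the sites unmethylated in both, 0.871% of those fully methylated in both and 12.1% of those between in both. Where the female was unmethylated and the male between, the male median was 10.0%, and the flanks had medians of 3.09% and 3.61%. In the reverse class, the female median was 11.1% and the flanks were at 3.52% and 3.10%.

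Opposite states at 1 site, with every call methylated in one liver and unmethylated in the other, were rare. They were found at 38 sites, which is 0.0527% of those compared (95% exact Clopper-Pearson interval 0.0373% to 0.0723%, counting error only). The female was unmethylated at 23 of them and the male at 15. They had 8 to 13 calls per liver and were spread over 34 scaffolds, the nearest pair on 1 scaffold being 514818 bp apart. None lay in an over-covered window, and the calls per site around them had a median of 1.67 times that of the median window. The minimum of 8 calls per liver by itself favours well-covered surroundings, and no such value is given for all kept sites. At 30 of the 38 sites both positions of the CG had been called in both livers, and by definition they gave the same state within each liver.

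The flanks of these opposite sites did not share the opposition. Around the sites unmethylated in the female, the flanks had mean levels of 80.4% (female) and 84.3% (male) (21 sites with enough calls), a difference of -3.91 ± 8.30 points (SD over sites). Around the sites unmethylated in the male, the flank means were 87.2% and 85.6% (15 sites), a difference of 1.65 ± 6.67 points. Over all kept sites, the flank difference was -1.56 ± 10.2 points. The liver in which such a site was unmethylated was thus mostly methylated in the flanks. A bisulfite call cannot tell an unmethylated cytosine from a thymine in the animal's own DNA, and the DNA sequences of these animals were not analysed here.

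In each direction, 3 opposite sites with the most calls in the shallower liver are given, with positions in assembly 6.1.3. Ties were taken in order of scaffold name: with the female unmethylated, 6 sites tied at 9 calls behind 1 deeper site, and with the male unmethylated, 3 tied at 10 calls behind 1 deeper. At positions 9051742 to 9051743 of scaffold NW_006890057.1, 0 of 10 calls were methylated in the female and 10 of 10 in the male, beside flanks at 87.1% and 100%, and all male calls came from the upper of the 2 positions. At 2124634 to 2124635 of NW_006890076.1, the counts were 0 of 9 in the female and 10 of 10 in the male, and the flanks were at 91.1% and 91.8%. At 6292120 to 6292121 of NW_006890089.1, they were 0 of 9 and 9 of 9, with flanks at 73.3% and 74.1%. In all of these the female was the unmethylated liver, amid flanks of 73.3% or more. The male was unmethylated at 616277 to 616278 of NW_006890264.1, where 11 of 11 calls were methylated in the female and 0 of 12 in the male, with flanks at 84.7% and 79.3%. At 675805 to 675806 of NW_006890061.1 the counts were 12 of 12 and 0 of 10, and the flanks were at 91.9% and 90.4%. At 10116169 to 10116170 of NW_006890063.1 they were 10 of 10 and 0 of 11, and the flanks were at 95.6% and 96.3%.

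A two-sided Fisher's exact test of the calls was run at each site, with Benjamini-Hochberg adjustment over the 72166 sites. It compares the reads of 2 libraries and not the sexes. At an adjusted p under 0.05 it called 5 sites, all of them opposite sites: 1 lower in the female (0.00139% of the sites tested) and 4 higher (0.00554%). The adjusted p was 0.0409 for each of the 5 in this exact test. Beside 3 of the sites above, these were 729047 to 729048 of NW_006890162.1, with 0 of 13 calls methylated in the female and 9 of 9 in the male, and 1371868 to 1371869 of NW_006890200.1, with 11 of 11 and 0 of 10. The latter pair was named for passing this test, after its values had been seen. Before adjustment, 1721 sites (2.38%) had an exact p under 0.05, of which 1052 were lower in the female and 669 higher. This share is below the 0.05 that can arise where nothing differs, and the split by direction was not tested. The 10703 sites at 0% and the 9416 at 100% in both livers cannot give such a p. Depth limited the number of sites called. A site with 8 calls in each liver cannot give an exact p under 1.55e-04, and 33 of the 38 opposite sites did not pass. None of the 5 calls was left with a minimum of 5 calls or at an adjusted p under 0.01. None was left with a minimum of 12 calls either, but no opposite site had more than 11 in the shallower liver. With the lower position only, each of the 5 had fewer than 8 calls in at least 1 liver. With 8 calls drawn per site, the 47 opposite sites could not pass over 72166 sites at an exact p of 1.55e-04. The last 3 alternatives thus could not have kept the 5 calls. A limit of 0.01 could not either, since the adjusted p of the exact test was 0.0409 for each. A minimum of 5 calls left the exact p of these sites as it was and adjusted it over 813320 sites. These alternatives do not show whether the 5 calls are stable.

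Differences of 50 points or more were less rare. The female was lower by that much at 922 sites (1.28% of those compared) and higher at 647 (0.897%). These sites were picked by the size of their difference, at medians of 8 calls (female) and 9 (male). Counting error can thus make up part of it, and only the 5 sites above passed the exact test. Where the female was lower, the sites had mean levels of 25.6% (female) and 84.9% (male), and their flanks 68.6% and 73.6%. Where it was higher, the sites had means of 86.7% and 26.7%, and their flanks 73.4% and 73.1%. The flanks differed by 20 points or more at 12.6% of the former, 10.5% of the latter and 6.71% of all kept sites. Neighbours could be compared only where the next kept site on either side lay within 1 kb, which held for 600 of the 922 sites, 463 of the 647 and 81.0% of all kept sites. Of the 600 sites, 81 (13.5%) had such a neighbour that differed by 50 points or more in the same direction, and of the 463 sites 40 (8.64%) did. Neighbours closer than a read share reads, so their differences are not independent. No such share was worked out for all kept sites.

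A few short runs of neighbouring sites differed together. The longest spanned 5 sites from 569218 to 569301 of NW_006890284.1, where 10 of 41 calls were methylated in the female (24.4%) and 42 of 46 in the male (91.3%). Single sites there ranged from 11.1% to 37.5% in the female and from 66.7% to 100% in the male. Every site of a run had been picked for a difference of 50 points or more in the same direction. That choice by itself favours separate ranges, so they are no further sign of a difference. Runs of 4 sites lay from 6116819 to 6116861 of NW_006890086.1, at 8.11% (female) and 67.3% (male) and within an over-covered window, and from 1447449 to 1447487 of NW_006890138.1, at 20.0% and 82.4%. With the female the higher, the longest run had 4 sites within 10 bp, from 4149990 to 4149999 of NW_006890098.1, at 97.6% (female) and 32.7% (male). Runs of 3 sites lay from 895866 to 895876 of NW_006890146.1, at 91.7% and 33.3%, and from 1308892 to 1308901 of NW_006890127.1, at 100% and 38.5%. None of these sites passed the exact test alone. Each run is shorter than a read, so its sites share reads and are not independent of each other.

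The mean female deficit per site was largest at sites of middle level, which were not the most numerous. Sites were grouped by the mean level of both livers. From 30% to under 40%, the 2070 sites had means of 32.4% (female) and 37.8% (male), a difference of -5.33 points. From 40% to under 50% it was -4.44 points, and from 50% to under 60% it was -3.79 points. It narrowed to -1.76 points from 80% to under 90%, on 11900 sites, and to -0.297 points from 90% to under 100%. Above 0% and under 10% it was -1.03 points, on 4291 sites of which 45.6% lay in over-covered windows. The female mean was the lower in each of these groups. The spread beyond counting was widest in the middle too. It was 18.3 points from 50% to under 60%, against 4.53 points from 80% to under 90% and 1.08 points under 10%. Part of this shape is given by the scale, since 2 levels can differ little when their mean is close to 0% or 100%.

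**Figure D2:**
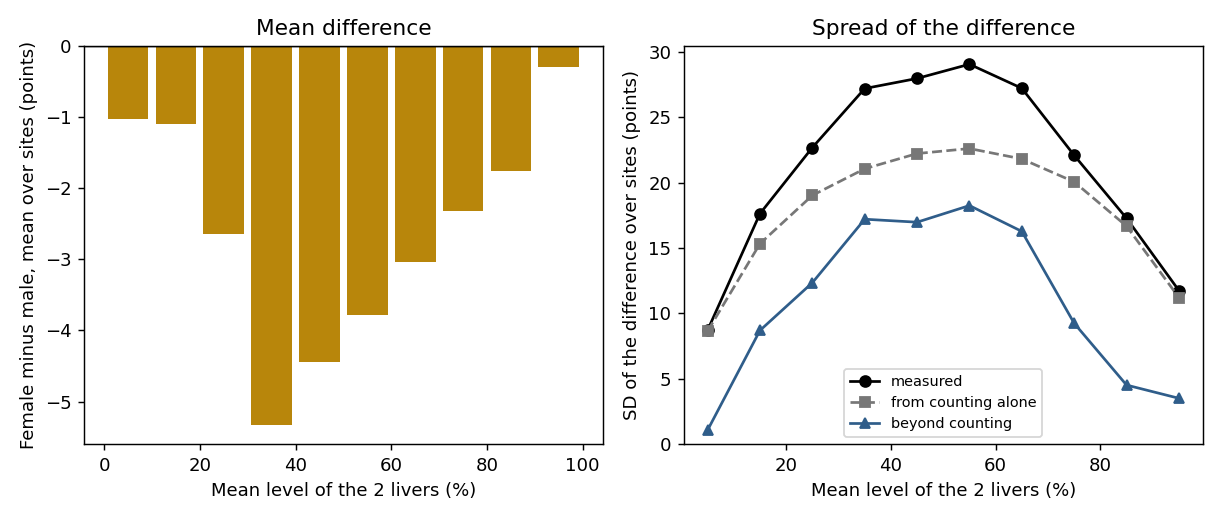
Left, mean of female minus male methylation over sites (percentage points) by the mean level of both livers (%), with sites at 0% or 100% in both left out. Right, SD of that difference over sites as measured (circles), as binomial counting alone gives it (squares) and beyond counting (triangles). The mean lies between -5.33 and -0.297 points in the 10 groups, and the spread beyond counting reaches 18.3 points in the middle.

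Each library had been read in 2 lanes, which gives a measure of how alike 2 parts of the same library read. At 22580 of the kept sites every lane of both livers had at least 4 calls, with medians of 5 to 6. Over these sites the lanes of the female library were correlated with an r of 0.881 and those of the male library with 0.894. Lanes of different livers gave 0.857 to 0.878. Without counting noise, r was 1.00 for either library, so that the lanes of 1 library differed by no more than counting. Both lanes come from 1 bisulfite conversion and 1 library, so this does not show how far a second library of the same liver would differ. Between the livers it was 0.976 to 0.982, and an SD of 7.24 to 8.41 points was left. Mean levels of lanes 1 and 2 differed by -0.0554 points in the female and 0.0966 points in the male. Female minus male lanes gave -1.33 to -1.18 points. The class was the same at 72.7% of the sites between the female lanes and 71.7% between the male lanes, beside 70.4% to 71.6% between livers. Full methylation in the first lane of a pair was repeated at 66.3% and 66.6% within a library, and at 60.7% to 65.1% between livers. For unmethylated sites these shares were 88.0% and 87.8%, and 76.6% to 84.7%. The second lane was lane 2 within a library, with a median of 5 calls, and a male lane between livers. With male lane 2 second (median 5), unmethylated sites were repeated at 84.7% and 83.6%, and fully methylated ones at 65.1% and 63.5%. With male lane 1 second (median 6), the shares were 79.4% and 76.6%, and 62.7% and 60.7%. The part of this unequal depth was not tested. Opposite states turned up at 11 sites between the female lanes and 5 between the male lanes, and at 30 to 50 sites between lanes of different livers. At these 4 or more calls per lane, a few opposite sites are thus seen within 1 library. Over-covered windows held 25.9% of these sites, more than of all kept sites.

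**Figure D3:**
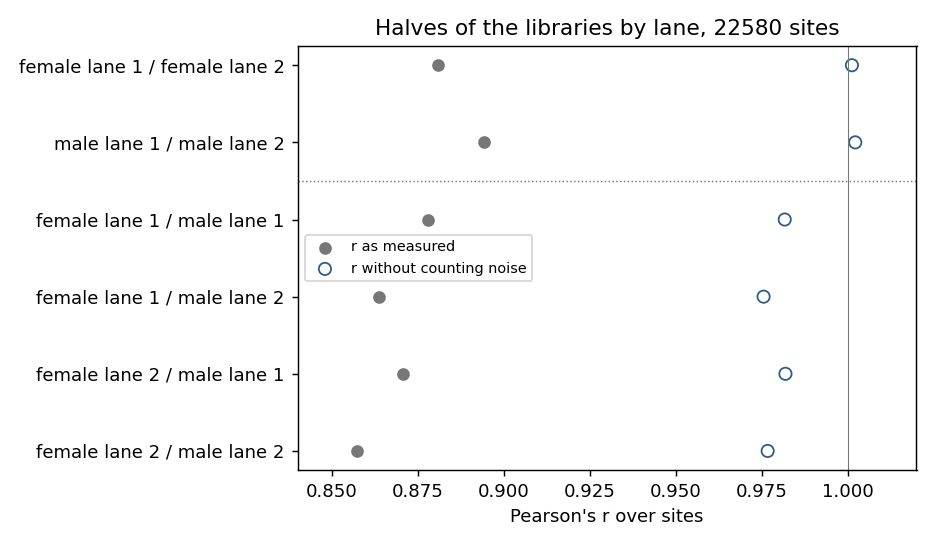
Pearson's r (horizontal axis) over 22580 sites for each pair of lanes, as measured (filled) and with counting noise removed (open). Above the dotted line are the lanes of 1 library, which reach 1.00 once counting noise is removed, and below it are lanes of different livers, which reach 0.976 to 0.982.

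The comparison was then carried from sites to windows, using all CG calls in adjoining windows with at least 8 calls in each liver. The measured correlation first fell and then rose. It was 0.896 over sites, 0.746 over 1004791 windows of 500 bp, 0.938 over 86294 windows of 10 kb and 0.970 over 8856 windows of 100 kb. Calls per window rose in parallel, from medians of 20 (female) and 25 (male) at 500 bp to 292 and 365 at 10 kb, and to 2882 and 3612 at 100 kb. The range of levels narrowed at the same time, with an SD over the female of 37.8 points for sites, 24.1 for 500 bp, 17.0 for 10 kb and 13.1 for 100 kb. Windows of 500 bp thus had more calls than the kept sites but a lower r. With counting noise removed, reads being taken as units, r was 0.945 at 500 bp, 0.977 at 10 kb and 0.979 at 100 kb, beside 0.970 for sites. When 8 calls were drawn per site or window and liver, r fell steadily with size, from 0.881 for sites to 0.616, 0.515 and 0.379.

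The spread of the difference shrank with size, while its mean did not. Its SD was 17.2 points for sites, 16.8 for 500 bp, 5.90 for 10 kb and 3.18 for 100 kb. Beyond counting, the SDs were 8.84, 6.94, 3.56 and 2.68 points. Counting made up 82.9% of the variance at 500 bp, but 29.0% at 100 kb. The mean difference was -1.46 points over the kept sites, -2.59 points at 500 bp, -2.82 points at 10 kb and -2.75 points at 100 kb. The female was the lower in 54.1% of the 500 bp windows, 69.4% of the 10 kb windows and 83.5% of the 100 kb windows. Levels lay within 10 points of each other in 52.8%, 87.9% and 97.2% of them. Differences of 50 points or more occurred in 1.19% of the 500 bp windows, in 3 windows of 10 kb (2 with the female lower) and in none of 100 kb.

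**Figure D4:**
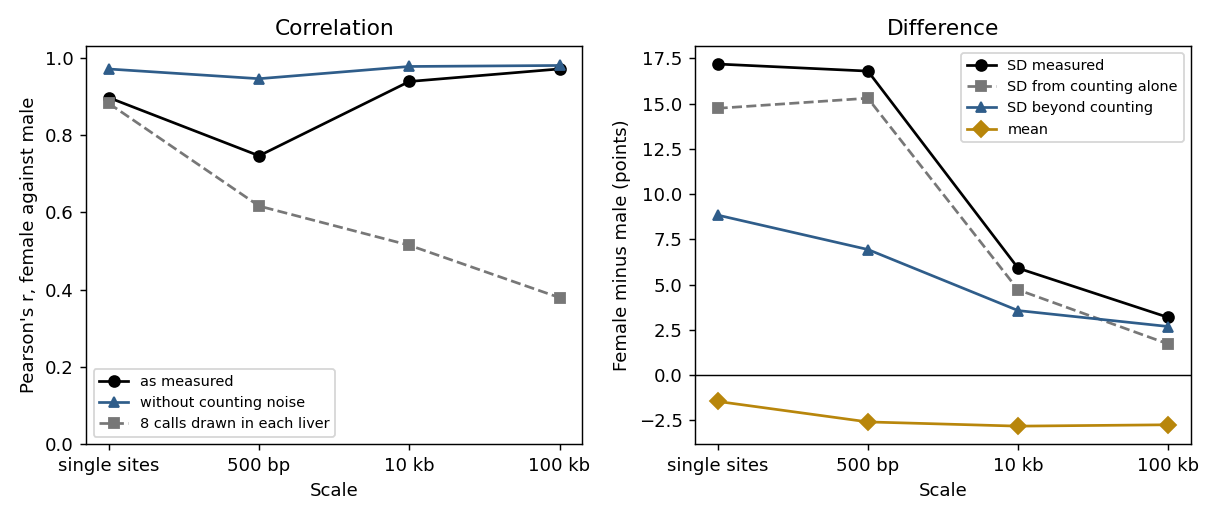
Left, Pearson's r of female against male methylation at 4 scales, as measured (circles), without counting noise (triangles) and with 8 calls drawn per site or window and liver (squares). Right, female minus male methylation (percentage points) at the same scales, with its SD as measured, from counting alone and beyond counting, and its mean. The measured SD falls from 17.2 points for sites to 3.18 points at 100 kb, while the mean lies between -2.82 and -1.46 points.

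Since the kept sites are a small part of the genome, the windows that hold one were also taken alone. They gave an r of 0.929 over 32264 windows of 500 bp, 0.961 over 21823 windows of 10 kb and 0.972 over 7710 windows of 100 kb. Without counting noise these values were 0.980, 0.984 and 0.980. The mean difference was -1.89, -2.34 and -2.67 points. From the calls of kept sites only, the same windows gave -1.95, -2.08 and -1.91 points. With windows weighed alike, the difference was thus larger from all calls than from kept sites at 10 kb and 100 kb, but not at 500 bp. The spread beyond counting, from all calls, was 5.47, 3.20 and 2.63 points, each less than the 8.84 points of the sites.

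At 100 kb the female deficit also followed the level of the window. In the 532 windows from 40% to under 50%, female levels averaged 43.8% and male levels 48.4%, a difference of -4.64 ± 3.95 points (SD over windows). In the 1597 windows from 80% to under 90%, the averages were 82.7% and 84.4%, a difference of -1.62 ± 1.72 points. The share of windows in which the female was the lower showed no order with level, and lay between 81.6% and 88.9% in all groups. The 191 windows under 40% had a difference of -3.23 ± 4.01 points, so that the deficit did not go on growing below 40%.

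The windows that differed most were chosen among those with the most calls. Of 1377 windows of 100 kb with at least 5000 calls in each liver, the female was lowest relative to the male from 900001 to 1000000 of NW_006890149.1, at 54.5% against 67.3%. This difference of -12.8 points had a counting SE of 1.26 points, with reads as units. Next were 1600001 to 1700000 of NW_006890163.1, at 58.4% and 69.9%, where the 17 kept sites had the other direction with means of 63.6% and 60.6%, and 3100001 to 3200000 of NW_006890145.1, at 65.8% and 77.3%. In the other direction the differences were smaller. The largest was 8.0 points (counting SE 1.12), from 900001 to 1000000 of NW_006890212.1, at 53.2% (female) and 45.2% (male). It was followed by 4.67 points (counting SE 1.28) from 900001 to 1000000 of NW_006890222.1, at 67.3% and 62.7%. Next came 4.61 points (counting SE 0.979) from 100001 to 200000 of NW_006890251.1, at 82.0% and 77.4%. The windows named here were picked as the extremes of 1377, so counting error can make up part of their differences, which were not tested.

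Among 15519 windows of 10 kb with at least 500 calls in each liver, the most negative lay from 10000001 to 10010000 of NW_006890065.1. There 256 of 519 calls were methylated in the female (49.3%) and 589 of 720 in the male (81.8%), a difference of -32.5 points with a counting SE of 5.96. The windows from 170001 to 180000 of NW_006890254.1 and from 4070001 to 4080000 of NW_006890065.1 followed, at -25.7 and -24.0 points (counting SE 3.95 and 7.41). The female was the higher by 21.3 points (counting SE 6.87) from 300001 to 310000 of NW_006890233.1, at 72.4% against 51.1%. It was higher by 19.2 points (counting SE 6.81) from 2750001 to 2760000 of NW_006890106.1 and by 17.9 points (counting SE 5.68) from 1560001 to 1570000 of NW_006890067.1. All 6 were picked as the extremes of 15519 windows, so counting error can make up part of these differences, which were not tested. Of these 6 windows, 5 hold no kept site, so the site comparison does not see them. This is common, since 21823 of all 86294 windows of 10 kb compared hold a kept site.

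Finally, it was asked how far from a site its difference extends. The difference at one site from lane 1 was set against that at another site from lane 2, so that no read entered both, and their covariance was divided by that of each site with itself over the same pairs. Over all kept sites, 48.2% of the difference beyond counting was shared by sites 2 to 10 bp apart, and between 36.4% and 54.3% in the distance classes from 11 to 1000 bp, with no order among them. The share was 34.0% at over 1 to 2 kb, 22.1% at over 5 to 10 kb and 3.70% over 100 kb. Outside over-covered windows the shares were lower. They were 45.7% at 2 to 10 bp, between 13.4% and 41.7% from 11 to 1000 bp, 16.6% at over 1 to 2 kb, 4.38% at over 5 to 10 kb and 0.490% over 100 kb. Every pair counted once, so stretches rich in kept sites weigh most, and the classes have no error estimate.

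**Figure D5:**
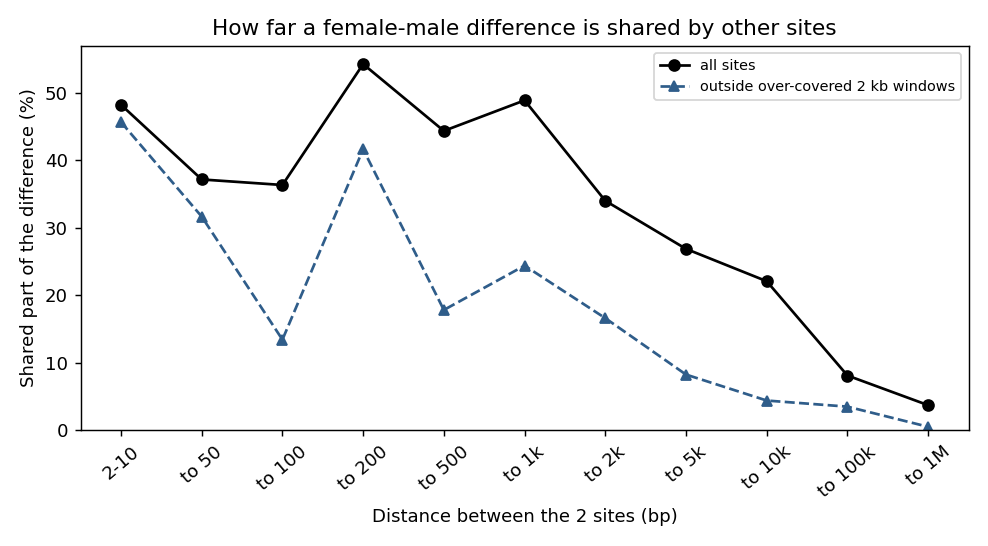
Share of the female minus male difference beyond counting that 2 kept sites have in common (vertical axis, %) by their distance (horizontal axis, bp), over all kept sites (circles) and over those outside over-covered 2 kb windows (triangles). Both lines vary from class to class within 1000 bp and fall beyond it, to 3.70% and 0.490% in the farthest class.

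The lower mean of the female was spread over the scaffolds. On 205 scaffolds with at least 100 kept sites, the mean difference had a median of -1.60 points and was below 0 on 169. It ranged from -6.90 points on NW_006890092.1, with 151 sites, to 3.18 points on NW_006890334.1, with 101 sites. No scaffold held more than 4.34% of the kept sites.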

How the data were processed

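Whole-genome bisulfite libraries of 1 female and 1 male liver were made by post-bisulfite adaptor tagging. Reads were single-end. The authors trimmed them with Trim Galore (0.4.0), removed bases at the 5' end, aligned them with Bismark (0.14.3) to the larger scaffolds of assembly 6.1.3, removed duplicates and extracted CG calls. The files the authors deposited hold 1 line per cytosine and read, methylated or unmethylated, without strand.

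Called positions 1 bp apart were joined, left to right, as the 2 cytosines of a CG site. A level is the percentage of methylated calls. Counting variance was p(1 − p)/(n − 1) per site, and in windows was summed over reads. Sites were tested by two-sided Fisher's exact test with Benjamini-Hochberg adjustment. With 1 library per sex no test of sex was made. Intervals cover counting error only and take sites as independent. Values were computed in Python 3.11.15 (SciPy 1.17.1, NumPy 2.4.6, pandas 2.3.3) and drawn with Matplotlib 3.10.9, and the functions were tested on simulated data.

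The comparison, its members and limits were chosen with earlier results of these data known. Named sites, runs and windows are the 3 foremost in each direction by calls, length or difference. Runs allowed gaps of 1 kb, a limit set after the data were seen. The alternatives tried were other minimums, the lower position of each site only, fewer calls, other windows and levels, and sites outside over-covered windows. The 10 low-coverage libraries were not used here.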

Additional observations from a re-analysis of the deposited data

How the results depend on the processing

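The mean difference over sites was below 0 under every alternative tried. It was -1.98 points with at least 5 calls in each library, -1.28 points with at least 12 and -1.06 points with the lower position of each site only. With sites weighted by their calls, separately in each library, it was -0.742 points. The site correlation of 0.896 was 0.773 with at least 5 calls, 0.945 with at least 12, 0.877 without over-covered windows, 0.903 with the lower position only, 0.881 with 8 calls drawn, 0.817 as Spearman's rho, 0.970 without counting noise and 0.926 with lane 1 only, an alternative chosen after seeing the data. Opposite sites made up 0.141% with at least 5 calls (1146 sites) and 0% with at least 12 (0 of 9380 sites). The latter allows up to 0.0320%, which is 3 sites in 9380. This limit is one-sided and is not to be set against the two-sided exact interval of the main share. Opposite sites made up 0.0290% with the lower position only (4 sites) and 0.224% with limits of 20% and 80% (162 sites). The Fisher test called 0 sites with at least 5 calls, with at least 12, with the lower position only, with 8 calls drawn and at an adjusted p under 0.01. The first of these adjusts over 813320 sites, and 12 calls or the lower position leave 9380 and 13787 sites, without the 5 called ones. At 500 bp, r was 0.939 with at least 50 calls, 0.857 from kept sites only, 0.711 from the mean of site levels, 0.945 without counting noise, 0.616 with 8 calls drawn and 0.929 in windows that hold a kept site. At 10 kb it was 0.838 from kept sites only, 0.933 from the mean of site levels, 0.977 without counting noise, 0.515 with 8 calls drawn and 0.961 in windows that hold a kept site, the last chosen at both sizes after seeing the data. At 100 kb it was 0.877 from kept sites only, 0.972 from the mean of site levels, 0.979 without counting noise and 0.379 with 8 calls drawn. No paired analysis was possible because each group compared has 1 library, and for the same reason no library could be left out. The cause of these shifts was not tested, except where counting noise or the number of calls was itself set.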

Other observations

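The level of a kept site was also set against that of the rest of its own window in the same liver. Over 71350 kept sites with at least 8 other calls in their 500 bp window in each liver, r was 0.887 for the female and 0.894 for the male. With the rest of the 10 kb window it was 0.782 and 0.786, and with that of the 100 kb window 0.601 and 0.606. A site and the rest of its window share reads at short distance, and counting noise was left in these values, which come from 1 pair of libraries and are a description.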
